A study of Mus musculus with 6 samples.

Results

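The genes described here are 50 genes of mitosis and the spindle, taken by their symbols from a table of 22322 genes. All 50 were found in the table under a single row each, and all 50 passed the filter on low counts, the lowest count of any member in any library being 353. RNA-Seq was performed on DP thymocytes, the CD4+CD8+ stage of T cell development in the thymus, sorted by flow cytometry from untreated mice of mixed sexes aged 4 to 7 weeks on the C57BL/6 background. The control group (3 libraries) came from Paxbp1fl/fl littermates, which carry the floxed allele of Paxbp1 without a Cre transgene. The cKO group (3 libraries) came from Paxbp1fl/fl Lckcre mice, in which the Lck-cre transgene deletes exon 8 of Paxbp1, a nuclear protein gene, from the early stages of T cell development. The labels do not say whether each library came from a separate mouse, so the p-values measure the spread between these libraries only.

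Mitosis is driven by the kinase Cdk1 bound to B-type cyclins, which is switched on by Cdc25 phosphatases and then assisted by Polo and Aurora kinases. Kinesin motors and microtubule-binding proteins build the spindle, kinetochores tie it to the chromosomes, and the spindle checkpoint holds back the anaphase-promoting complex until every chromosome is attached. In the thymus, cells divide rapidly as they pass from the DN and ISP stages into the DP stage, and most DP thymocytes are then small resting cells, so transcripts of mitosis in a DP sort are read mainly from the dividing fraction. Most of these genes are transcribed in G2 and M phase through promoter elements called the cell cycle genes homology region (CHR) and the CCAAT box, bound by the DREAM and MuvB complexes and by NF-Y.

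The promoters of the members carried those elements often. Windows from 250 bases before to 50 bases after a transcript start (RefSeq, GRCm38.p6) were found for 43 of the 50 genes, in 46 windows. The letters TTTGAA, the core of the CHR, stood in 35 of the 46 windows on either strand (76.1%), against 17.9% of all 32851 promoter windows. The letters CCAAT stood in 35 windows (76.1%), against 37.4% of all windows. E2F-like letters, TTTGGCG or TTTCCCG on either strand, stood in 6 windows (13.0%), against 4.84% of all. For 42 genes of DNA synthesis, which are transcribed earlier in the cell cycle, 34 genes had 39 windows, and there the shares were 12.8% for TTTGAA, 56.4% for CCAAT and 46.2% for the E2F-like letters. A match of letters is a description and does not show binding, and the motifs do not overlap one another in the stretches given here.

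The 120 bases before the transcript start are shown for the 4 members that passed the test of expression described further on (Kif18a, Ndc80, Kif20b and Anln) and for 4 members that did not (Ccnb2, Cdk1, Cdc20 and Top2a), 5′ to 3′ on the strand of the gene, with any of the motifs above in capitals. In GRCm38.p6 they lie at chr2:109280618-109280737 (plus strand) for Kif18a, chr17:71526858-71526977 (minus) for Ndc80, chr19:34922238-34922357 (plus) for Kif20b and chr9:22389207-22389326 (minus) for Anln. The other 4 lie at chr9:70421555-70421674 (minus) for Ccnb2, chr10:69352913-69353032 (minus) for Cdk1, chr4:118437344-118437463 (minus) for Cdc20 and chr11:99024190-99024309 (minus) for Top2a.
Kif18a: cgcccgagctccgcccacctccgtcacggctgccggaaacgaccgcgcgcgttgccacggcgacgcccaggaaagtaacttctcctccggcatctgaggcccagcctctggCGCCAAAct
Ndc80: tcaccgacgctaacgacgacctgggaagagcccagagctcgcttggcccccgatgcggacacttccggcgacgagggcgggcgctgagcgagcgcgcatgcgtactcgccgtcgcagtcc
Kif20b: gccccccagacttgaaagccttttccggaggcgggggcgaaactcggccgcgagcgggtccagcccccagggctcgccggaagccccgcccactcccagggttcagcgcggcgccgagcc
Anln: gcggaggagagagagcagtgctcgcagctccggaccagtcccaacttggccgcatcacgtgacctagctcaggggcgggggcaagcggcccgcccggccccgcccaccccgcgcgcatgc
Ccnb2: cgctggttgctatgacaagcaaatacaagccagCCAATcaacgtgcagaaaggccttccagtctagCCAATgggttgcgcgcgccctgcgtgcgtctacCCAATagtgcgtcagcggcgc
Cdk1: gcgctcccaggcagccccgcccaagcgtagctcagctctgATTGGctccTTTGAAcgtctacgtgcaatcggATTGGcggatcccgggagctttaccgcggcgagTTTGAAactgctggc
Cdc20: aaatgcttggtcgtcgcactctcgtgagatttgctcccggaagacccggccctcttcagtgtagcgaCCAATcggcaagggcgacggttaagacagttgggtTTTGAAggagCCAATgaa
Top2a: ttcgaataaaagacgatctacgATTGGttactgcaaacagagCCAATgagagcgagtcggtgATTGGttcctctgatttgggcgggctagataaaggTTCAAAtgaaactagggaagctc
Ccnb2 has 3 CCAAT boxes that begin at positions -87, -54 and -21 from the start. It also has CHR cores at -167 and 5, outside the stretch shown. Cdk1 has CHR cores at -71 and -15, and Cdc20 has a CHR core at -18. Kif18a, Ndc80, Kif20b and Anln have no CCAAT in the whole window on either strand. A CHR core begins at position 30 after the start in Ndc80, at 8 and 14 in Kif20b and at 22 and 29 in Anln, and none is in the window of Kif18a, whose E2F-like letters begin at -9.

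The deposited table gives the reads counted per gene in each library, 18963775 to 26252248 in all, so that 1 count was worth 0.0381 to 0.0527 CPM (counts scaled to library size, here with edgeR's TMM factors). Paxbp1 itself had 40.1, 16.3 and 15.5 CPM in control libraries 1, 2 and 3 and 38.8, 47.1 and 49.6 CPM in cKO libraries 1, 2 and 3 (adjusted p 0.0977 by edgeR). Counts over the whole gene draw mostly on sequence outside the deleted exon and therefore do not check the genotype labels, by which the libraries are named. In a principal component analysis, the first component held 38.9% of the variance. On it control libraries 1, 2 and 3 lay at -28.3, -35.2 and -37.8 and cKO libraries 1, 2 and 3 at 35.0, 26.5 and 39.7. Control library 1 lay apart from the other controls on the second component (18.1% of the variance), at 36.6 and the other control libraries at -13.8 and -14.6. The cKO libraries were spread as widely on this component, at 21.2, -32.0 and 2.63. The calls among the 50 members are also given without control library 1 and without cKO library 3. Of 10 markers of DP thymocytes, all were tested. Their summed level was 9408 to 11086 CPM in the control and 6853 to 8156 CPM in the cKO libraries, and 4 of them (Cd8b1, Rag1, Cd3e and Cd1d1) passed the test as lower.

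Per gene length, the members differed widely in level. In the deposited FPKM (fragments scaled to gene length and library depth), the control libraries had the highest mean for Smc4, a condensin subunit that compacts chromosomes, at 371 ± 23.8 (mean ± S.D., n = 3). Next stood Ube2c, the ubiquitin-conjugating enzyme of the anaphase-promoting complex, at 332 ± 83.1, Birc5 (survivin), a subunit of the chromosomal passenger complex, at 291 ± 82.0, and Cdc20, the activator of the anaphase-promoting complex, at 219 ± 54.2. Ube2c and Birc5 differed by less than the S.D. of either, Smc4 and Ube2c by more than the S.D. of Smc4 alone, and Birc5 and Cdc20 by more than that of Cdc20 alone. At the other end were Espl1 (separase), the protease that cuts cohesin at anaphase, at 6.59 ± 1.92, Anln (anillin), a scaffold of the cleavage furrow, at 11.1 ± 0.36, and Ttk (Mps1), a checkpoint kinase, at 11.9 ± 1.56. The regulatory kinases lay between them, with Cdk1 at 99.2 ± 32.5, Aurkb at 92.3 ± 28.8 and Plk1 at 77.1 ± 25.7 FPKM.

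The comparison of cKO with control libraries addressed whether the loss of Paxbp1 altered transcription in DP thymocytes, here of the machinery of cell division. Of the 50 members, 4 rose in the cKO libraries, 0 fell and 46 did not pass. The 4 were Kif18a, Ndc80, Kif20b and Anln. Calls were made with the quasi-likelihood test of edgeR, its p-values adjusted by Benjamini-Hochberg over 11488 genes and held to a limit of 0.05. Of those 11488 genes 4.47% were higher and 5.89% lower by this rule, so the share of members that rose (4 of 50) was of the same order as the background, and the members are described by their values rather than by the count. At an unadjusted p below 0.05 (edgeR), 7 members were higher and 1 lower, against 1524 and 1680 of all 11488 genes. None of the 50 passed the stricter rule of the study's methods, which also asks for an absolute log2 fold change above 1 and was met by 1.53% of all tested genes as higher and 1.23% as lower. The median log2 fold change of the members was 0.09, with 34 above zero and 16 below, and that of all tested genes was -0.002. DESeq2, which the study used, called 6 members higher (background 8.22%) and 1 lower (background 8.44%), adding Smc2, Pttg1 and Hmmr to the 4, and none past the stricter rule. limma-voom called the 4 alone.

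Kif18a, a kinesin that dampens the movements of chromosomes on the spindle so that they align at its equator, had the largest change. Kif18a (ENSMUSG00000027115) lies on the plus strand of chromosome 2 from 109280738 to 109341747 in GENCODE M21 (GRCm38). It had 53.7, 57.3 and 49.3 CPM in the control and 85.1, 97.1 and 129 CPM in the cKO libraries. All 3 cKO libraries lay above all 3 control libraries, and control library 1 was not low. The mean of 53.4 ± 3.99 CPM in the control rose to 104 ± 22.5 CPM in the cKO group (± S.D., n = 3), which is 0.96 on the log2 scale (SE 0.16; adjusted p 0.00880, edgeR), with a 95% interval of 0.59 to 1.32.

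Ndc80, the subunit of the NDC80 complex that grips spindle microtubules at the kinetochore, was the second. Ndc80 (ENSMUSG00000024056, minus strand of chromosome 17 from 71496100 to 71526857) had 91.6, 131 and 125 CPM in the control and 194, 198 and 247 CPM in the cKO libraries. The groups did not overlap. The change on the log2 scale was 0.88 ± 0.16 (SE; adjusted p 0.00983, edgeR), with a 95% interval of 0.53 to 1.23.

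Kif20b, a kinesin of the spindle midzone and midbody needed for the end of cytokinesis, had a smaller change. Kif20b (ENSMUSG00000024795, plus strand of chromosome 19 from 34922361 to 34975745) had 64.1, 70.5 and 59.3 CPM in the control and 96.6, 91.9 and 115 CPM in the cKO libraries. Its change on the log2 scale was 0.65 ± 0.14 (SE; adjusted p 0.0174, edgeR), again with the groups apart.

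Anln (ENSMUSG00000036777, minus strand of chromosome 9 from 22332012 to 22389188) had 38.6, 44.9 and 44.2 CPM in the control and 60.4, 57.0 and 88.2 CPM in the cKO libraries. Its change on the log2 scale was 0.69 ± 0.18 (SE; adjusted p 0.0394, edgeR), and cKO library 3 stood well above the other cKO libraries. Annotated genes overlap between 0.018% (Kif18a) and 2.15% (Anln) of the length of these 4 genes. In Kif18a the overlap is with Mettl15 on the other strand, over 11 bases.

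The 4 increases rested in part on single libraries. Without cKO library 3, edgeR called 0 members higher and 0 lower, against 0.359% and 0.666% of all genes. In that fit 6 members were higher and 1 lower at an unadjusted p below 0.05, against 1072 and 1253 of all 11710 genes. Kif18a then had a log2 fold change of 0.77 (adjusted p 0.0523 by edgeR), Ndc80 0.76 (0.0659), Kif20b 0.54 (0.101) and Anln 0.46 (0.162). Of the 13 alternative fits, Kif18a and Ndc80 passed in 12, Kif20b in 10 and Anln in 8.

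**Figure D1:**
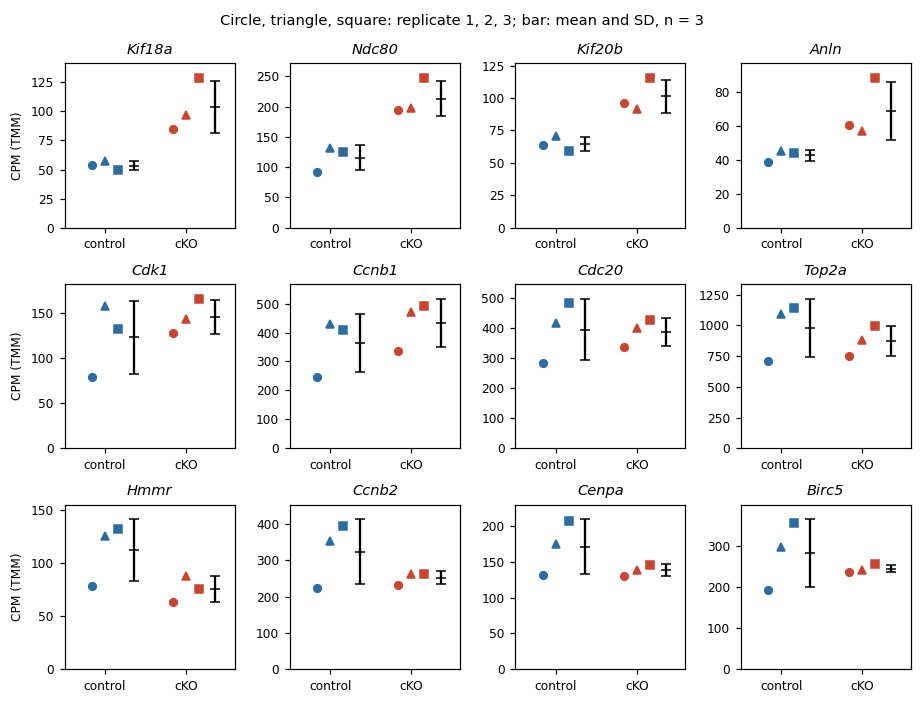
CPM (vertical axis, from 0) of 12 members in the 3 control and 3 cKO libraries, with points for single libraries and bars for the mean and S.D. (n = 3). In the top row the groups do not overlap, as for Kif18a at 49.3 to 57.3 against 85.1 to 129 CPM, and in the other rows they overlap and replicate 1, the circle, is often the lowest of its group.

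Smc2 and Pttg1 also had groups that did not overlap. Smc2, the partner of Smc4 in condensin, had 147, 195 and 212 CPM in the control and 226, 277 and 289 CPM in the cKO libraries, a log2 fold change of 0.52 (adjusted p 0.0596 by edgeR). Pttg1 (securin), the inhibitor of separase, had 43.2, 38.7 and 33.1 CPM against 50.3, 64.5 and 47.1 CPM, a log2 fold change of 0.49 (adjusted p 0.0894 by edgeR). In all, 6 of the 50 members had every cKO library above every control library and 0 had every cKO library below. Over all tested genes this held for 15.7% and 17.3%.

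The 10 kinases, cyclins and regulators of mitotic entry had 0 members that passed edgeR's test in either direction, and 0 at an unadjusted p below 0.05. Their log2 fold changes ran from -0.36 (Ccnb2) to 0.37 (Nek2). Cdk1, the kinase that starts mitosis, had 78.7, 158 and 133 CPM in the control and 128, 143 and 166 CPM in the cKO libraries, a log2 fold change of 0.24 with a 95% interval of -0.24 to 0.73 (adjusted p 0.510 by edgeR). The groups overlapped, and control library 1 was the lowest of the 6. Ccnb1, cyclin B1, had 248, 431 and 409 CPM against 336, 469.9 and 491 CPM (log2 fold change 0.25, interval -0.21 to 0.72). Plk1, a kinase of spindle assembly and checkpoint recovery, had 102, 209 and 195 CPM against 134, 210 and 221 CPM (0.16, interval -0.42 to 0.73). Foxm1, a transcription factor of G2 and M phase genes, had 43.3, 71.1 and 79.2 CPM against 48.5, 71.9 and 62.3 CPM (-0.09, interval -0.58 to 0.41). In each of these genes replicate 1 was the lowest library of both groups. The phosphatases that activate Cdk1 had log2 fold changes of -0.30 (Cdc25b) and 0.17 (Cdc25c), the kinase Aurka 0.08, and Ccnf, cyclin F, 0.19, all with intervals that hold zero.

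Ccnb2, cyclin B2, had values of 224, 354 and 393 CPM in the control and 231, 261 and 263 CPM in the cKO libraries. Control libraries 2 and 3 stood above all cKO libraries, and control library 1 below them. The log2 fold change was -0.36 (interval -0.77 to 0.04, adjusted p 0.230 by edgeR).

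In the spindle checkpoint, 0 of 5 members passed edgeR's test and 0 had an unadjusted p below 0.05, with log2 fold changes from -0.01 (Bub3) to 0.35 (Mad2l1). Bub1b (BubR1), which binds and inhibits Cdc20, had 189, 276 and 317 CPM in the control and 253, 293 and 361 CPM in the cKO libraries, a log2 fold change of 0.21 (interval -0.21 to 0.64). Among the 4 genes of anaphase control, Cdc20 had 284, 419.7 and 485 CPM against 337, 402 and 428 CPM, a log2 fold change of -0.03 (interval -0.43 to 0.38), and Ube2c had -0.02 (interval -0.43 to 0.39), while Espl1 had 0.25. The checkpoint kinases Bub1 and Ttk had 0.07 and 0.08. The libraries of both groups were interleaved for these genes.

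Among the 9 kinesins, Kif18a and Kif20b rose and 7 did not pass. Kif11 (Eg5), which pushes the spindle poles apart, had 437, 663 and 728 CPM in the control and 461, 610.0 and 592 CPM in the cKO libraries, a log2 fold change of -0.14 (interval -0.55 to 0.27). Kif20a, another kinesin of the spindle midzone, had a log2 fold change of 0.36 (adjusted p 0.328 by edgeR), and the other kinesins lay between -0.06 (Kif23) and 0.33 (Kif4). The log2 ratio of Kif18a to Kif11 within a library, which does not depend on scaling between libraries, was -3.03, -3.53 and -3.88 in the control and -2.44, -2.65 and -2.20 in the cKO libraries. The ratio was thus higher in every cKO library.

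Of the 4 spindle assembly genes 0 passed edgeR's test, and Hmmr alone had an unadjusted p below 0.05. Tpx2, which activates Aurora A on the spindle, had 189, 313 and 307 CPM in the control and 244, 289 and 317 CPM in the cKO libraries (log2 fold change 0.07, interval -0.34 to 0.49). Prc1, which bundles midzone microtubules, and Nusap1, a microtubule-binding protein, had 0.08 and -0.02. Hmmr, a spindle pole and hyaluronan-binding protein, had the lowest log2 fold change of the 50, -0.57 (adjusted p 0.0934 by edgeR). Its values were 78.6, 126 and 132 CPM in the control and 63.0, 87.6 and 75.5 CPM in the cKO libraries, so that only cKO library 2 overlapped with the control group, through control library 1.

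At the centromere and kinetochore, Ndc80 rose and the other 5 of 6 members did not pass. Cenpe, a kinetochore motor, had 114, 172 and 170.3 CPM in the control and 133, 147 and 149 CPM in the cKO libraries (log2 fold change -0.09, interval -0.44 to 0.27). Cenpa, the histone H3 variant that marks centromeres, had 132, 175 and 208 CPM against 129.9, 139 and 146 CPM (-0.31, interval -0.66 to 0.04), and Cenpf, a kinetochore protein, had -0.09. The partners of Ndc80 in its complex changed less than Ndc80 did, with log2 fold changes of 0.40 (interval -0.15 to 0.95) for Nuf2 and 0.00 (interval -0.43 to 0.43) for Spc25. Within a library, the log2 ratio of Ndc80 to Spc25 was -0.34, -0.67 and -0.64 in the control and 0.32, 0.14 and 0.42 in the cKO libraries, a mean difference of 0.85 with no overlap. The ratio of Ndc80 to Nuf2 overlapped between the groups, with log2 values of 1.03, 0.46 and 0.38 against 1.11, 0.83 and 1.15. The ratios of Kif20b to Kif20a, Anln to Ect2 and Smc2 to Smc4 also overlapped, with mean differences of 0.26, 0.31 and 0.43. That of Ndc80 to Spc24 did not (mean difference 0.66). These ratios were chosen after the values were seen and carry no test.

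Of the 4 subunits of the chromosomal passenger complex, 0 passed edgeR's test and 0 had an unadjusted p below 0.05. Aurkb, its kinase, had 116, 198 and 230 CPM in the control and 180.3, 208 and 242 CPM in the cKO libraries (log2 fold change 0.21, interval -0.27 to 0.70), and Birc5 had 192, 295 and 355 CPM against 237, 241 and 254 CPM (-0.20, interval -0.62 to 0.22). The other subunits, Cdca8 (borealin) and Incenp, had 0.08 and 0.10. In cytokinesis, Anln rose, and Ect2, the exchange factor that activates RhoA at the furrow, had a log2 fold change of 0.36 (adjusted p 0.172 by edgeR).

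Among the 6 genes of chromosome structure 0 passed edgeR's test, with 1 (Smc2) at an unadjusted p below 0.05. Top2a, the topoisomerase that untangles sister chromatids, had 709, 1094 and 1140 CPM in the control and 749, 882 and 995 CPM in the cKO libraries (log2 fold change -0.16, interval -0.56 to 0.23). Mki67, which encodes the proliferation marker Ki-67, had 284, 383 and 424 CPM against 342, 451 and 483 CPM (0.23, interval -0.16 to 0.61). Smc4 had the narrowest interval of all members, with a log2 fold change of 0.10 (interval -0.12 to 0.32), and the condensin subunits Ncapg and Ncapd2 had 0.29 and -0.03.

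**Figure D2:**
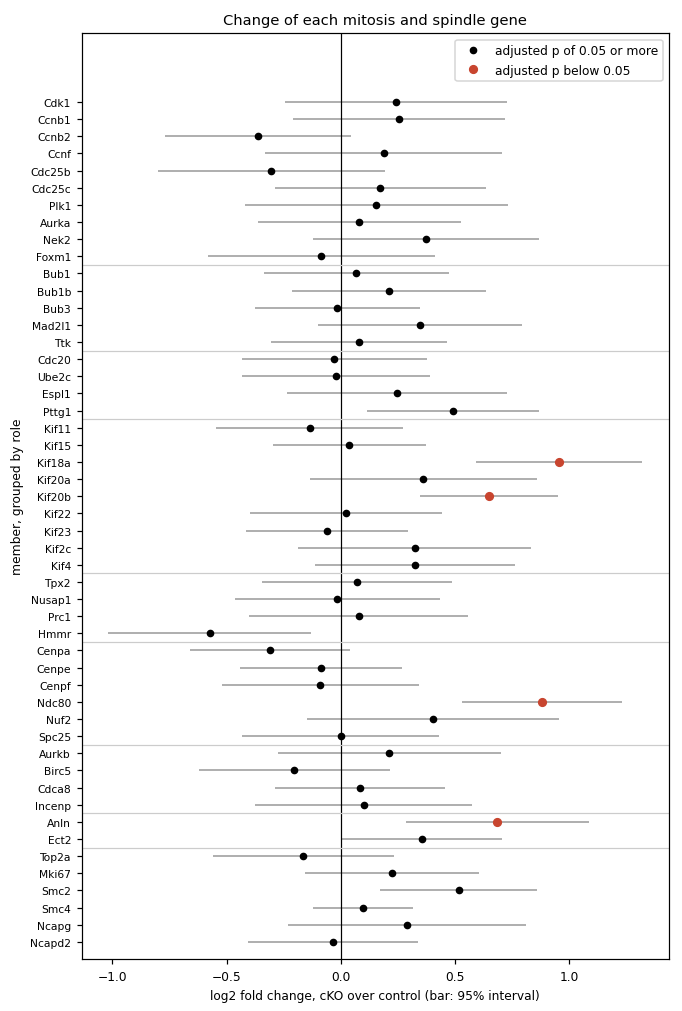
Log2 fold change of cKO over control (horizontal axis) for each of the 50 members, grouped by role, with bars for the 95% interval from edgeR and colour for an adjusted p below 0.05. The 4 coloured points lie between 0.65 and 0.96, and 42 of the 50 intervals hold zero.

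For most members the data bound the size of a change rather than show its absence. The 95% intervals, which are not adjusted for the number of genes, had a median half-width of 0.42 on the log2 scale and lay wholly between -1 and 1 for 46 members. The 4 whose interval passed these limits were Kif18a, Ndc80 and Anln above and Hmmr below. The libraries average over all sorted cells, so that more dividing cells and more transcript per dividing cell cannot be told apart.

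The level of most members followed the library within each group. Control library 1 was the lowest control for 46 of the 50 members and the lowest of all 6 libraries for 41. Against the mean of control libraries 2 and 3, its log2 CPM was lower for 48 members, with a median difference of -0.68. The exceptions were Pttg1 (0.27) and Kif18a (0.01). Among the cKO libraries, library 1 was the lowest for 45 members, with a median difference of -0.32 from the mean of cKO libraries 2 and 3. Together the 50 members took 0.766%, 1.13% and 1.17% of all counts in control libraries 1, 2 and 3 and 0.943%, 1.14% and 1.20% in cKO libraries 1, 2 and 3, and these shares overlapped. Control library 1 was also the control library with the highest level of Paxbp1, and the part of that library's other properties in its low mitotic levels was not tested.

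**Figure D3:**
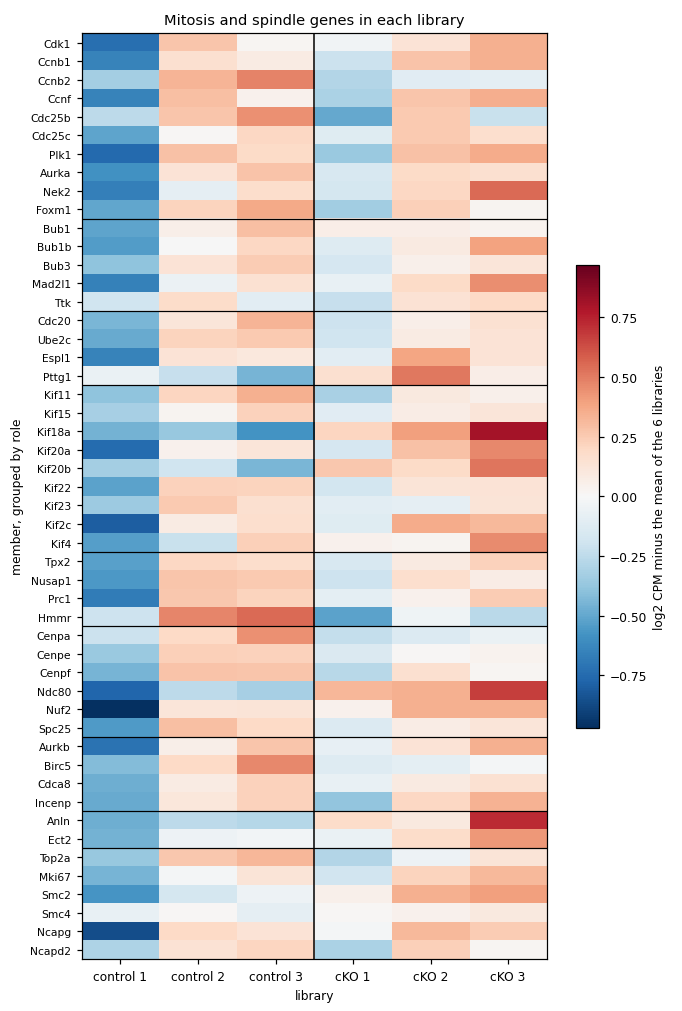
Log2 CPM of each member (rows, grouped by role with lines between the groups) in each of the 6 libraries (columns), as the difference from the mean of the 6 libraries. The column of control library 1 is the lowest of the 6 for 41 members, and the rows of Kif18a, Ndc80, Kif20b and Anln are lower in all control than in all cKO libraries.

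Without control library 1, 4 members were higher and 4 lower, against 8.42% and 8.68% of all genes tested in that fit, and the median log2 fold change of the members was -0.09, with 21 above zero and 29 below. Kif18a (log2 fold change 0.96), Ndc80 (0.74) and Kif20b (0.64) still passed, Pttg1 passed with 0.58, and Anln did not (0.62, adjusted p 0.0528 by edgeR). Those lower were Hmmr (-0.78, adjusted p 0.00708 by edgeR), Ccnb2 (-0.57, 0.00627), Cenpa (-0.47, 0.0199) and Birc5 (-0.42, 0.0249). With all 6 libraries none of these 4 passed.

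**Figure D4:**
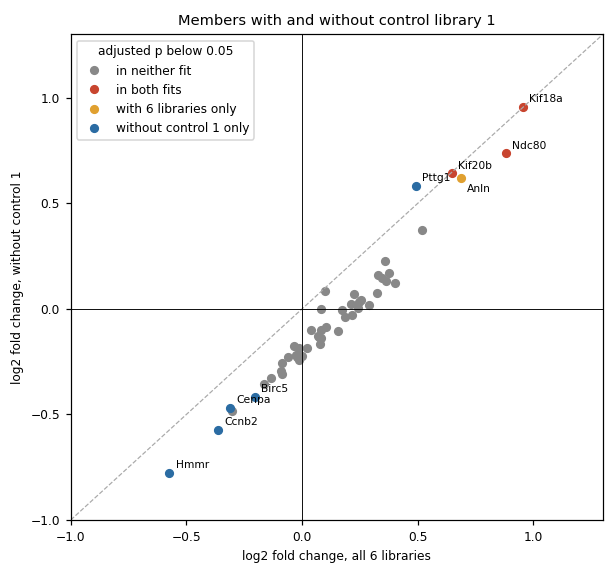
Log2 fold change of each member without control library 1 (vertical axis) against that with all 6 libraries (horizontal axis), with the line of equal values dashed and colour for the fits in which the adjusted p was below 0.05. All points but Kif18a and Pttg1 lie below the dashed line, and Hmmr, Ccnb2, Cenpa and Birc5 reach -0.78 to -0.42 without that library.

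Other genes of mitosis included some that rose and some that fell. Of 107 further genes, 106 were in the table and tested, of which 9 rose and 3 fell. Over all tested genes 4.47% were higher and 5.89% lower. Those that rose were Wee1, the kinase that holds Cdk1 inactive (log2 fold change 1.08, adjusted p 0.00501 by edgeR), Mastl, the kinase that restrains the phosphatase opposing Cdk1 (0.93, 0.0228), Nsl1 and Zw10 of the kinetochore (0.82 and 0.63), Gtse1, a microtubule-binding protein (0.80), Oip5 and Cenpq of the centromere (0.80 and 0.50), Cdca5 (sororin), which protects cohesion (0.78), and Cdc16, a subunit of the anaphase-promoting complex (0.52). Wee1 had 40.5, 44.3 and 49.4 CPM in the control and 92.9, 80.0 and 111 CPM in the cKO libraries, with the groups far apart. Those that fell were Ube2s, an enzyme that extends ubiquitin chains on targets of the anaphase-promoting complex (-1.11), Iqgap3, a scaffold protein (-0.96), and Mad1l1 (Mad1), which recruits Mad2 to unattached kinetochores (-0.80). Ube2s had 195, 453 and 571 CPM in the control and 189.5, 182 and 192 CPM in the cKO libraries, so that control library 1 stood close to the cKO group. The median over the 106 genes was 0.15. These counts depended on single libraries, as did those over all genes. Without control library 1, 12 genes were called higher and 9 lower, with a median of 0.01, against 8.42% and 8.68% of all genes. Without cKO library 3 the counts were 1 and 0, against 0.359% and 0.666% of all genes. At an unadjusted p below 0.05 (edgeR) they were 11 and 5 in that fit, against 1072 and 1253 of all 11710 genes. They were 3 and 1 without control library 2 (178 and 235 of all 11869 genes) and 4 and 1 without control library 3 (285 and 351 of 11771). They were 5 and 1 without cKO library 1 (179 and 286 of 11685) and 5 and 2 without cKO library 2 (332 and 413 of 11803).

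Genes of DNA synthesis, listed for comparison, differed more between the groups. Of 42 such genes (the MCM helicase, its loaders, polymerases, clamp and nucleotide enzymes), 18 rose and 0 fell by edgeR (33 and 0 at an unadjusted p below 0.05), 40 had a log2 fold change above zero and the median was 0.54. Over all tested genes 4.47% were higher and 5.89% lower by edgeR (1524 and 1680 of 11488 at an unadjusted p below 0.05). DESeq2 called 26 of the 42 higher and 0 lower (background 8.22% and 8.44%). By edgeR, 4 were called higher without cKO library 3, 10 without control library 2, 14 without cKO library 1 or cKO library 2, 20 without control library 1 and 22 without control library 3. Orc1, a subunit of the origin recognition complex, rose by 1.78 on the log2 scale, and Cdc6, which loads the helicase, by 1.38. The 42 genes took 0.675% to 0.978% of counts in the control and 1.20% to 1.48% in the cKO libraries, which did not overlap. Without control library 1 their median was 0.38, against -0.09 for the 50 mitotic genes. The lists are set side by side here and the difference between them was not tested.

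**Figure D5:**
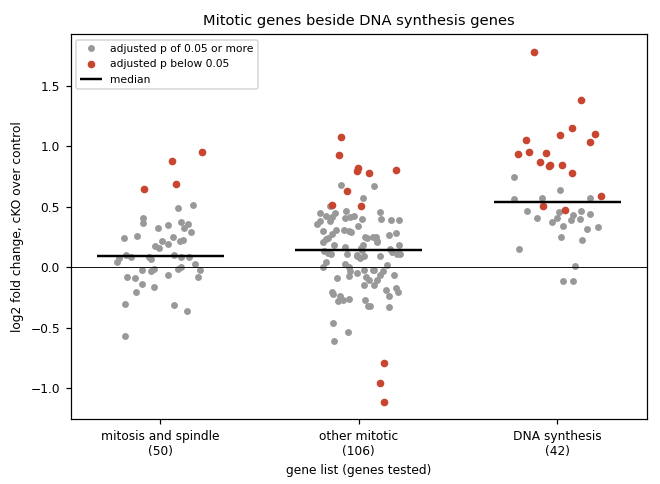
Log2 fold change of cKO over control (vertical axis) for every tested gene of the 3 lists, with bars for the median and colour for an adjusted p below 0.05. The medians are 0.09 for the 50 mitosis and spindle genes, 0.15 for the 106 other mitotic genes and 0.54 for the 42 DNA synthesis genes.

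The 4 members that rose were all among those without a CCAAT box in their window. Of the 43 members with a window, 11 had no CCAAT on either strand, and their median log2 fold change was 0.40, with 4 called higher and 9 above zero. These were Kif18a, Ndc80, Anln, Kif20b, Pttg1, Nuf2, Mad2l1, Kif2c, Kif15, Nusap1 and Birc5. The 32 members with a CCAAT box had a median of 0.07, with 0 called by edgeR and 19 above zero. Among these 32, Smc2, Ect2 and Hmmr had an unadjusted p below 0.05, and DESeq2 called Smc2 and Hmmr. Without control library 1 the medians were 0.15 for the 11 and -0.15 for the 32. Of the members called in that fit, the 4 higher and Birc5 have no CCAAT in the window, and Hmmr, Ccnb2 and Cenpa have it. The same split showed no such order among the other mitotic genes. Of these, 37 genes without the box had a median of 0.12 (3 called higher and 3 lower). The 49 with it had 0.22 (4 called higher and 0 lower). Nor was the order seen over all tested genes with a window, where both medians were -0.01. Of 5134 such genes without the box, edgeR called 205 higher and 327 lower. Of 4015 with it, 206 were called higher and 204 lower. Among the DNA synthesis genes the order was opposite to that of the members. There 13 genes without the box had a median of 0.46 (4 called higher) and 21 with it 0.64 (12 called higher). The split was made after the values were seen and carries no test.

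Genes of other cells and stages also differed between the libraries. Of 13 macrophage markers in the table, 11 were tested and 6 rose. Their summed level was 38.5 to 79.7 CPM in the control and 105 to 149 CPM in the cKO libraries. The largest part of the sum was Apoe, at 26.4 to 47.8 against 46.2 to 71.9 CPM, which did not pass (adjusted p 0.0625 by edgeR). C1qa, Lyz2, Csf1r and Axl did not pass either, the last 2 with log2 fold changes of 0.22 and 0.27. Mertk and Marco were at 0 in every library, and Adgre1 was at 0 in the control libraries and at 2.19 to 2.40 CPM in the cKO libraries. Of 9 genes of early thymocytes, 8 were tested and Hes1, Il2ra and Dtx1 rose. Kit, Notch3, Ptcra and Cd44 did not pass and had log2 fold changes below zero (-0.93, -0.76, -0.31 and -0.01). The sum of the 9 was 217 to 284 CPM in the control and 311 to 335 CPM in the cKO libraries. Its largest part was Notch1, at 125 to 150 against 152 to 178 CPM (adjusted p 0.211 by edgeR). Ptcra, which encodes the pre-TCR alpha chain of dividing early cells, had 50.5, 86.3 and 93.5 CPM in the control and 58.9, 71.9 and 54.7 CPM in the cKO libraries. The sum of 5 B cell markers was 40.9 to 45.1 CPM in the control and 25.7 to 28.8 CPM in the cKO libraries, nearly all of it Cd79b, which fell. The sum of 6 erythroid markers was 26.7 to 141 against 0.684 to 48.4 CPM, and that of 5 markers of thymic epithelium 11.3 to 13.7 against 9.53 to 13.7 CPM, with Krt5 at 0 in every library. The part of these differences in the levels of the mitotic genes was not tested.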

How the data were processed

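RNA from sorted DP thymocytes was converted to pre-amplified cDNA and sequenced on an Illumina platform by the authors. The methods name a Discover-sc WTA kit and the labels a SMARTER kit. The submitters' processing notes list fastp 0.18.0, Bowtie2 2.2.8, HISAT2, StringTie 1.3.1 and RSEM without their roles, and the genome build, the annotation and any use of strand were not given in the sources used. The authors deposited 1 table, whose count columns hold reads per gene and library without normalization and whose FPKM columns hold the authors' values scaled to gene length and depth. The deposited log2 ratio, p-value and FDR columns and the authors' mean FPKM belong to their own comparison and were not used.

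The count test was edgeR 4.0.16 in R 4.3.3 (TMM, filterByExpr at its defaults of 10 counts and 15 in total, quasi-likelihood test, genotype as the only term, Benjamini-Hochberg adjustment over 11488 of the 15349 genes with a count). Standard errors are the log2 fold change over the root of F, and 95% intervals use the fit's t quantile. Libraries held 18963775 to 26252248 counts, and chi-square over degrees of freedom between replicates was 19.1 to 64.9, so none was a duplicate. Alternatives were RLE factors, library totals, DESeq2 1.42.0, limma-voom (limma 3.58.1), no filter, a mean of at least 5 CPM, a replicate block and each library left out in turn. The fits were tested on simulated data. Gene positions are from GENCODE M21, matched by identifier, and promoter windows from RefSeq, matched by symbol.

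The members and the other lists were chosen with earlier results of these data known. Values per library are given for members past the threshold, for Cdk1, Bub1b, Cdc20, Kif11, Tpx2, Cenpe, Aurkb, Anln and Top2a as examples of the roles, for the 3 members with the highest and the 3 with the lowest log2 fold change, and for Mki67, Ccnb1, Plk1 and Foxm1. Other members named with values per library (Smc2, Pttg1 and Birc5), the within-library ratios and the split by CCAAT were chosen after the values were seen.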

Additional observations from a re-analysis of the deposited data

How the results depend on the processing

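In all, 4 members were called higher with all 6 libraries, and over the 6 fits that left out a library in turn this count lay between 0 and 4. It was 0 without cKO library 3 and 2 without control library 3 or cKO library 1. The calls over all genes moved as well. Of these, 514 were higher with all libraries, 42 without cKO library 3, 285 without control library 3 and 179 without cKO library 1. The count of members called lower was 0 with all libraries. Over the 6 fits it was 4 without control library 1, where 8.68% of all genes were lower, and 0 in the other 5. It was 1 (Hmmr) under DESeq2 (log2 fold change -0.56, adjusted p = 0.0397) and 1 (Hmmr) with the replicate block (-0.55, adjusted p 0.0412 by edgeR), and the block also called Smc2. The median log2 fold change of the members was 0.09 with all libraries, 0.11 with the replicate block, and between -0.09 and 0.24 when a library was left out, being below zero only without control library 1. Over all tested genes, the deviations of same-numbered libraries from their group means correlated with r = 0.045, 0.038 and -0.030. For libraries of unlike number, r ran from -0.079 (control 2 and cKO 1) to 0.040 (control 2 and cKO 3). Among the members, replicate 1 was the lowest control for 46 and the lowest cKO library for 45. With the replicate block, 15 members were higher and 2 lower at an unadjusted p below 0.05 (edgeR). Over all 11488 genes these counts were 1609 and 1685. Whether the replicate numbers mark pairs of libraries was not tested. Without control library 2 or cKO library 1, Kif18a also passed the fold threshold of 1. RLE factors, library totals, limma-voom, no filter and the filter at 5 CPM called 4 or 5 members higher and 0 lower. Over all genes these fits called 546 to 625 higher and 602 to 755 lower. The cause of these shifts was not tested. With 3 libraries a group, changes below the half-width of the members' intervals, 0.42 at the median on the log2 scale, were mostly not detectable. These intervals are not adjusted for the number of genes, so a change above the half-width could also fail to pass. With all libraries, 8 members had intervals that exclude zero, and 4 of these were called by edgeR.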
